A study of Mus musculus with 6 samples.

Results

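Respiratory complex I is the NADH:ubiquinone oxidoreductase of the inner mitochondrial membrane, and the genes described here are those that the deposited table lists as protein coding and whose names begin with Nduf. The name alone decided membership, although the genes, lists and roles were chosen with earlier results of these data known. They were 46 of the 54532 genes in the table and lay on 17 chromosomes. Of the 46 genes, 45 passed the filter on low counts and were tested among 13134 genes. By role they comprised 7 core subunits, 29 accessory subunits, 8 assembly factors and Ndufa4 and Ndufa4l2, which stand outside the complex.

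RNA was sequenced in bulk from the ischemic lobe of the liver of C57BL/6 mice, after warm ischemia lasting 1 h and reperfusion lasting 12 h. There were 3 libraries per group. In this injury the blood flow to a part of the liver is stopped and then let back in. The wild-type animals gave the libraries WT-14, WT-44 and then WT-77, and the animals that lack the transcription factor IRF8 in hepatocytes gave IRF8-cKO-71, IRF8-cKO-88 and then IRF8-cKO-106. Values of single libraries are given in that order in all sentences. Both groups were injured, and no uninjured liver was analysed here. The sources used here do not give the promoter that drives the deletion, the exons removed or the age of the animals. The labels do not say that each library is a separate animal, so a p-value measures the spread among these samples, which may be technical. In bulk tissue, fewer cells of a type and less RNA per cell cannot be told apart.

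Complex I takes electrons from NADH, passes them through flavin and iron-sulfur clusters to ubiquinone, and pumps protons across the membrane. Its N module binds NADH, its Q module reduces ubiquinone, and its membrane arm pumps protons. The core subunits carry out catalysis and are encoded partly in the nucleus and partly in the mitochondrial genome, accessory subunits surround and stabilise the core, and assembly factors help to build the complex without remaining in it. In liver the complex reoxidises NADH from fatty acid and amino acid breakdown, and during reperfusion it is known as a site of superoxide formation.

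Irf8, the deleted gene, had 152, 110 and 155 reads in WT and 92, 109 and 90 reads in IRF8-cKO. At 9.30, 9.48 and 10.3 against 5.67, 6.71 and 4.16 CPM (counts relative to the library total, after composition factors by the TMM method), the 3 IRF8-cKO libraries were below all WT libraries. The log2 fold change, IRF8-cKO over WT, was -0.81 with a standard error (SE) of 0.33, and the adjusted p was 0.174 in the edgeR quasi-likelihood test, with p-values adjusted by the Benjamini-Hochberg method across the 13134 genes. Irf8 is also known to be expressed in macrophages and dendritic cells, outside hepatocytes, and its counts cover the whole gene.

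Library totals ranged from 14758237 to 16805830 counts. All 12 hepatocyte markers were tested and none was at 0, with Alb between 46858 and 88584 CPM. Across all genes, 182 (1.39%) had an adjusted p under 0.05, of which 59 (0.449%) were higher and 123 (0.937%) lower in IRF8-cKO. Reads of the mitochondrial genome made up 7.19% to 20.2% of WT totals and 5.99% to 7.14% of IRF8-cKO totals. The median over all genes tested was a log2 fold change of 0.03, and it moved to 0.25 when libraries were scaled by their totals alone.

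No Nduf gene passed an adjusted p of 0.05 in the edgeR quasi-likelihood test, against 0.937% of all genes called lower and 0.449% called higher, and limma-voom called none either. At an unadjusted p under 0.05 there were 12 Nduf genes, all lower in IRF8-cKO, where 12.1% of all genes were lower and 24.1% passed in either direction. DESeq2 called 4 of them lower (Ndufa1, Ndufa13, Ndufs6 and Ndufv3), against 6.42% called lower and 4.86% called higher of the genes for which it gave an adjusted p. Of the 45 tested genes, 37 had a negative log2 fold change, with a median of -0.51, and this number was 30 with scaling by library totals alone. CPM ranges of the groups did not overlap for 15 genes that were lower and 2 that were higher in IRF8-cKO, against 14.5% and 14.4% of all genes. The SE of a single gene's log2 fold change was 0.33 at the median and ran from 0.25 to 0.50.

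By role, accessory subunits had a median log2 fold change of -0.65 and 28 of 29 were negative, or 25 with scaling by library totals alone. All 12 genes with an unadjusted p under 0.05 were accessory subunits, which are 29 of the 45 genes tested. Of all genes, 12.1% were lower at that p. Accessory subunits were also 12 of the 15 genes that were lower without overlap. That held for 14.5% of all genes, and for 26% to 30% of those with transcripts under 1000 bases. The 7 core subunits had a median of -0.08, which was 0.12 with scaling by library totals alone, and none had an unadjusted p under 0.05. The 8 assembly factors had a median of 0.46, with 5 positive and 3 negative, and that median was -0.07 without IRF8-cKO-71. The difference between these roles was not tested.

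**Figure D1:**
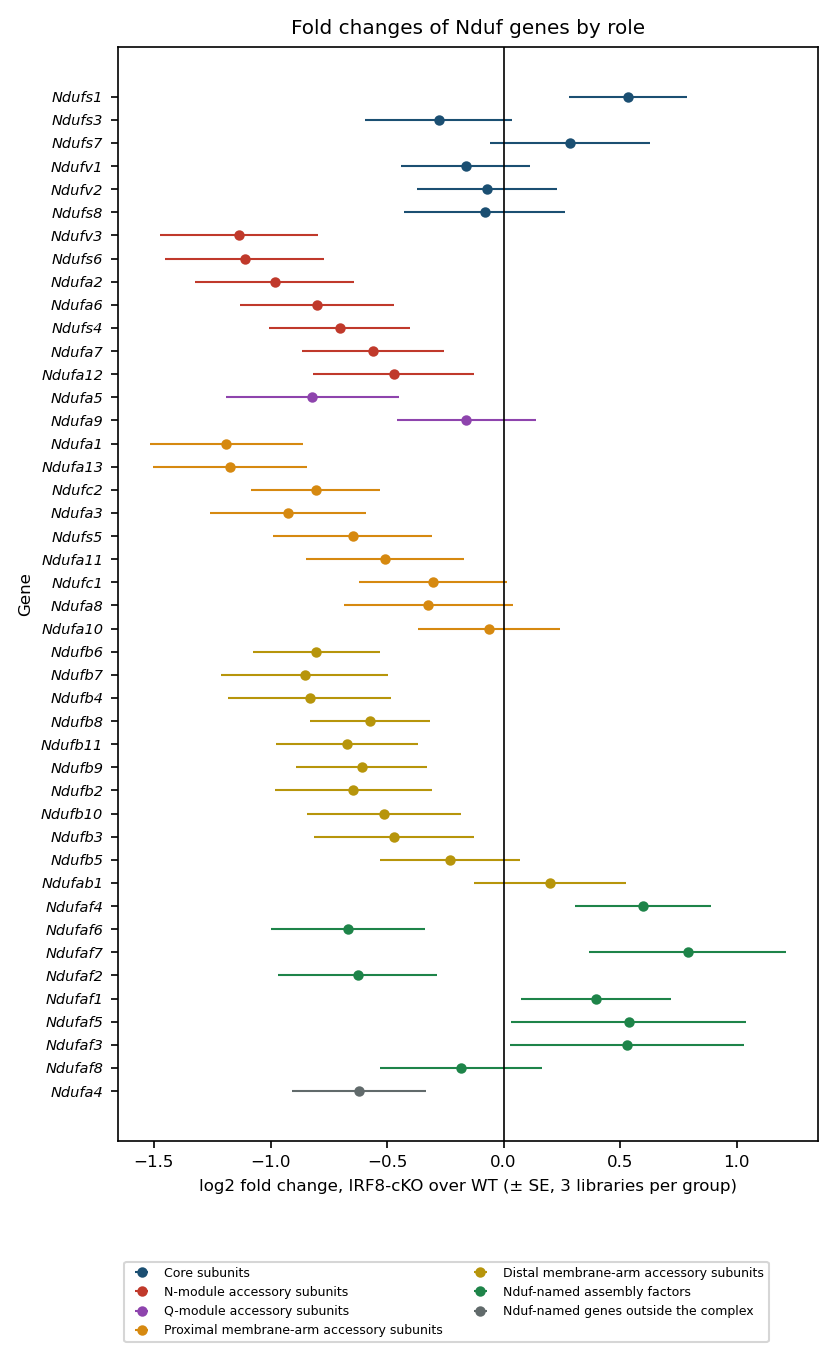
Log2 fold changes of 44 of the 45 tested Nduf genes, IRF8-cKO over WT, with bars of 1 SE (3 libraries per group) and colours for the role in the complex. With TMM scaling, accessory subunits lie left of 0 except for Ndufab1, from -1.19 (Ndufa1) to 0.20, core subunits lie between -0.28 and 0.53, and no gene shown had an adjusted p under 0.05.

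The promoters of 5 genes are shown as examples. Ndufa1 and Ndufa13 had the lowest p of all Nduf genes. Ndufs6 and Ndufb4 were accessory subunits of 2 further modules with a negative fold change, but not those with the lowest p there. Ndufaf4 was an assembly factor with a positive fold change. Each line gives the 120 bases that end just before the RefSeq transcription start (GRCm38.p6), read 5′ to 3′ on the gene's strand. The windows are chrX:37191239-37191358 (minus strand) for Ndufa1, chr8:69902021-69902140 (minus) for Ndufa13, chr13:73328483-73328602 (minus) for Ndufs6, chr16:37654369-37654488 (minus) for Ndufb4 and chr4:24897963-24898082 (plus) for Ndufaf4. Capitals mark matches on either strand to GCGCANGCG, the motif of nuclear respiratory factor 1 (NRF1), a regulator of respiratory chain genes.
Ndufa1: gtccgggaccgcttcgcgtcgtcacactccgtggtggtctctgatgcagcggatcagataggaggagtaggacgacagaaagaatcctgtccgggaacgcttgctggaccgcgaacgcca
Ndufa13: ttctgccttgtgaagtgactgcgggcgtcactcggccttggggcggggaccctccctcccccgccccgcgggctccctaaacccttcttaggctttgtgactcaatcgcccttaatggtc
Ndufs6: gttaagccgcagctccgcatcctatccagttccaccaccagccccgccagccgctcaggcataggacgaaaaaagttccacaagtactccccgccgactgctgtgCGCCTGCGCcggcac
Ndufb4: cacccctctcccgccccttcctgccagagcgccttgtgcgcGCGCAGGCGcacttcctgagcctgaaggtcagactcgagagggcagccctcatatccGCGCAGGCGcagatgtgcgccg
Ndufaf4: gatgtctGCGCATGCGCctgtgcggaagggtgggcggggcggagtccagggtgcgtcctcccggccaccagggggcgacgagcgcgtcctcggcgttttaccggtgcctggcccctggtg
Of the shown windows, those of Ndufs6, Ndufb4 and Ndufaf4 held the NRF1 letters, whereas those of Ndufa1 and Ndufa13 did not. Ndufv3 and Ndufb6 had the lowest p among accessory subunits of the N module and distal membrane arm. Their windows, not shown, held no NRF1 letters.

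RefSeq promoter windows, from 250 bases before to 50 bases after the start, matched 40 of the 46 genes by symbol. The NRF1 letters occurred in 10 of the 40 (25%), against 7.03% of the promoters of all 27025 genes. CCGGAAG, a site of ETS factors such as GABP, occurred in 6 (15%), against 9.93%, and AAGATGGCG, the motif of YY1, in 6 (15%), against 1.64%. No window held TCAAGGTCA, the motif of estrogen-related receptors, which 0.466% of all promoters held. Both strands were searched, some motifs can share bases, and a match is a description of letters only.

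Among the core subunits, Ndufs1, the largest core subunit and a carrier of iron-sulfur clusters, had 39.8, 38.0 and 34.9 CPM in WT and 63.9, 44.6 and 54.8 CPM in IRF8-cKO. All IRF8-cKO libraries were above all WT libraries, and the log2 fold change was 0.53 (SE 0.25, adjusted p = 0.227). Ndufs1 shares 489 exon bases with Ino80dos on the opposite strand, and the sources used here do not give the strand setting of the counting. It was the only core subunit without overlap between groups.

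Ndufv1, which holds the flavin and binds NADH, had 117, 97.3 and 85.5 CPM in the WT libraries and 111, 79.4 and 76.7 CPM in the IRF8-cKO libraries. Here the groups overlapped, and its log2 fold change was -0.16 (SE 0.28). Ndufs3, a core subunit of the Q module, had 82.1, 115 and 75.6 CPM against 103, 68.4 and 53.6 CPM. IRF8-cKO-71 lay within the WT range and the other IRF8-cKO libraries below it, and the log2 fold change was -0.28 (SE 0.32, adjusted p = 0.617). The core subunits Ndufs7, Ndufv2 and Ndufs8 carry iron-sulfur clusters and stood at 0.28 (Ndufs7), -0.07 (Ndufv2) and -0.08 (Ndufs8), all with overlapping groups.

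In the N module all 7 accessory subunits had negative fold changes, with a median of -0.80, and 4 were lower without overlap between groups. Of all genes 14.5% were. The share was 30% for genes with transcripts under 700 bases and 18.9% for those from 1000 to under 2000 bases, the 2 length classes of these subunits. Ndufv3, which sits beside the NADH-binding flavoprotein, had 44.2, 84.1 and 45.3 CPM in WT and 34.9, 22.2 and 22.0 CPM in IRF8-cKO. Group means were 57.9 ± 22.8 and 26.4 ± 7.36 CPM (SD, n = 3), and the WT spread came mainly from WT-44. The log2 fold change was -1.13 (SE 0.34, adjusted p = 0.0958). DESeq2 gave an adjusted p of 0.0335, and over all alternatives it ran from 0.0138 to 0.332.

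Ndufs6 (chr13:73319838-73328542, mm10), a zinc-binding subunit, had 57.5, 81.5 and 64.5 CPM in WT and 46.9, 26.6 and 20.7 CPM in IRF8-cKO. The groups did not overlap, and IRF8-cKO-71 was the nearest to the WT libraries. The log2 fold change was -1.11 (SE 0.34, adjusted p = 0.10). Without IRF8-cKO-71 it was -1.51 with an adjusted p of 0.0419, and over all alternatives the adjusted p ran from 0.0167 to 0.321.

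Ndufa2, a small subunit with a thioredoxin-like fold, had 97.1, 159 and 107 CPM in WT and 87.6, 52.7 and 43.2 CPM in IRF8-cKO, and its log2 fold change was -0.98 (SE 0.34, adjusted p = 0.131). Again no IRF8-cKO library reached the lowest WT library. Ndufs4, which joins late in assembly and whose loss causes Leigh syndrome, stood at -0.70 (adjusted p = 0.193), also without overlap. Ndufa6, a partner of the acyl carrier protein, stood at -0.80, Ndufa7 at -0.56 and Ndufa12, which takes the place held by Ndufaf2 during assembly, at -0.47. In these last genes the groups overlapped.

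The accessory subunits of the Q module were Ndufa5 and Ndufa9. Ndufa5 had 78.5, 144 and 60.7 CPM in WT and 72.5, 46.9 and 40.9 CPM in IRF8-cKO, so that IRF8-cKO-71 lay above WT-77. Its log2 fold change was -0.82 (SE 0.37, adjusted p = 0.211), and it was -0.39 without WT-44. Ndufa9, which binds NADPH, had 71.9, 80.4 and 52.4 CPM in WT and 81.0, 54.0 and 48.3 CPM in IRF8-cKO, and stood at -0.16.

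In the proximal membrane arm all 9 accessory subunits had negative fold changes, with a median of -0.65. Ndufa1 (chrX:37187588-37191163, mm10), a small membrane subunit needed for assembly, had the lowest p of all Nduf genes. It had 76.4, 125 and 68.6 CPM in WT and 50.3, 38.8 and 29.1 CPM in IRF8-cKO. The group means were 89.9 ± 30.4 and 39.4 ± 10.6 CPM (SD, n = 3), a 2.28-fold higher level in WT, with no overlap. The log2 fold change was -1.19 (SE 0.33) with an adjusted p of 0.0873 in edgeR's test. DESeq2 gave -1.19 with an adjusted p of 0.0187, and over all alternatives the adjusted p ran from 0.00942 to 0.299.

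Ndufa13 (chr8:69894180-69902558, mm10), also known as GRIM-19, had 93.3, 159 and 84.9 CPM in WT and 64.0, 39.98 and 45.5 CPM in IRF8-cKO. All IRF8-cKO libraries were below the lowest WT library, and the log2 fold change was -1.17 (SE 0.33, adjusted p = 0.0887). Ndufa13 shares 375 exon bases with Tssk6 on the opposite strand. DESeq2 called it as well, at an adjusted p of 0.0203, and over all alternatives the adjusted p ran from 0.0118 to 0.308.

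Ndufc2, a membrane-arm subunit, had 49.6, 72.5 and 56.9 CPM in WT and 40.4, 35.1 and 26.9 CPM in IRF8-cKO. It stood at -0.81 (SE 0.28, adjusted p = 0.128), and Ndufa3 stood at -0.92 (adjusted p = 0.139), both without overlap. The other proximal subunits ran from -0.65 (Ndufs5) to -0.06 (Ndufa10) and overlapped between groups.

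The distal membrane arm had 11 tested accessory subunits, 10 of them with negative fold changes and a median of -0.61, and 4 were lower without overlap (14.5% of all genes, and 26% to 30% of those with transcripts under 1000 bases). Ndufb6, a membrane subunit, had 44.6, 51.2 and 39.7 CPM in WT and 32.9, 23.9 and 20.8 CPM in IRF8-cKO. With means of 45.2 ± 5.75 and 25.9 ± 6.30 CPM (SD, n = 3), its groups did not overlap, but WT-77 and IRF8-cKO-71 lay nearer to each other than the extremes of either group. Its log2 fold change was -0.80 (SE 0.27, adjusted p = 0.125), and it shares 257 exon bases with Smim27 on the opposite strand.

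Ndufb7, which is folded through disulfide bonds in the intermembrane space, had 57.1, 106.3 and 54.5 CPM in WT and 56.4, 34.0 and 30.3 CPM in IRF8-cKO. Ndufb4, also of this arm, had 57.8, 112 and 53.5 CPM in WT and 54.7, 34.6 and 36.2 CPM in IRF8-cKO. In both genes IRF8-cKO-71 lay above WT-77 and WT-44 was far above all others. Their log2 fold changes of -0.85 and -0.83 were -0.48 and -0.42 without WT-44. The remaining Ndufb genes ran from -0.67 (Ndufb11) to -0.23 (Ndufb5), and Ndufb8, Ndufb9 and Ndufb11 did not overlap between groups. On the same strand, Ndufb8 shares 134 exon bases with Gm20538, Ndufb9 201 with Gm49356 and Ndufb2 145 with Gm42420. Ndufb11 shares 117 exon bases with Rbm10 on the opposite strand.

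Ndufab1, the mitochondrial acyl carrier protein that also serves lipoic acid and iron-sulfur cluster synthesis, was the exception among accessory subunits. It had 23.9, 39.1 and 23.6 CPM in WT and 46.0, 28.0 and 25.3 CPM in IRF8-cKO. The groups overlapped, and the log2 fold change of 0.20 (SE 0.33) was -0.10 without IRF8-cKO-71.

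**Figure D2:**
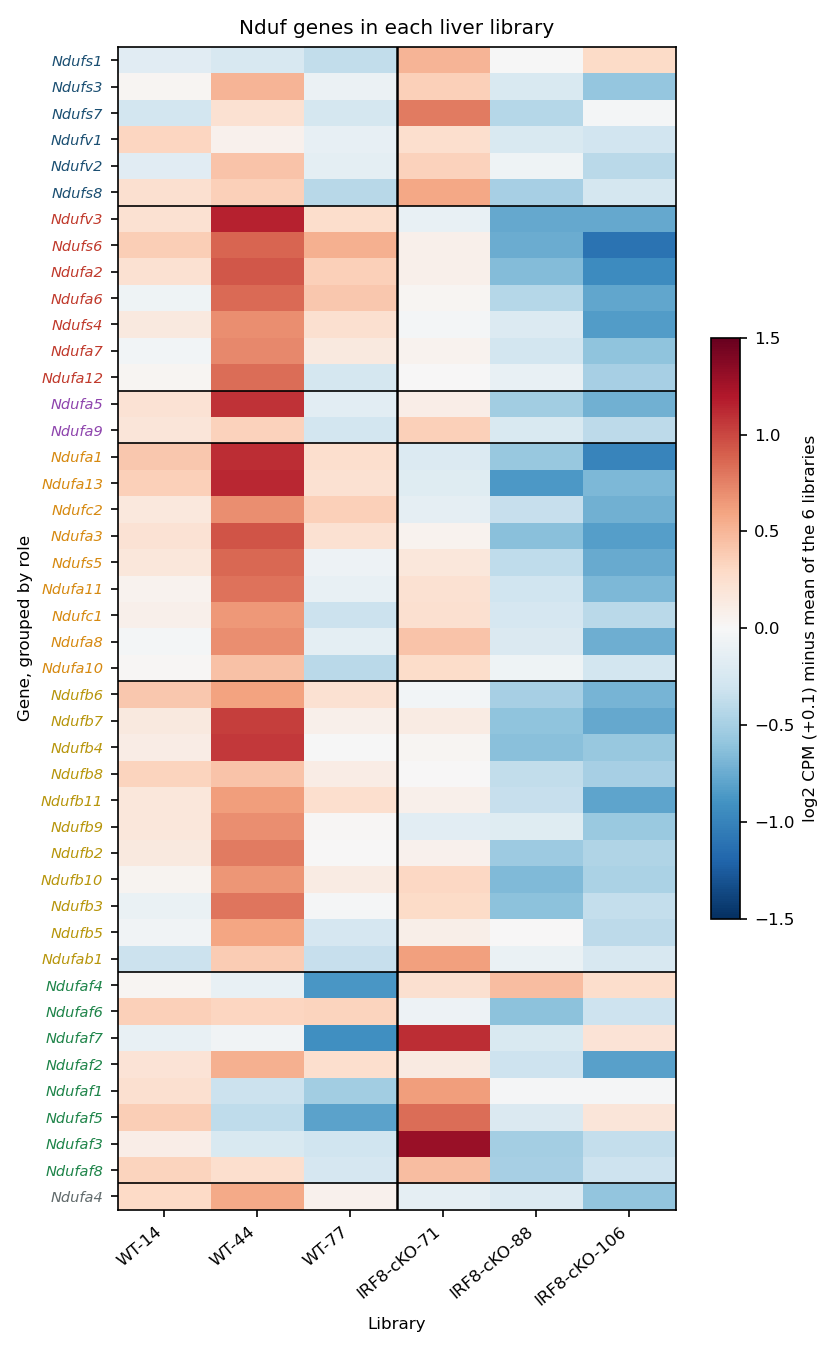
The same 44 Nduf genes in each of the 6 libraries, as log2 CPM (with 0.1 added) minus the gene's mean over the libraries, with lines between roles and colours of the names as for the fold changes. WT-44 is the highest library for 27 of the 29 accessory subunits (19.4% of all genes) and IRF8-cKO-106 the lowest for 22 (15.6% of all genes). IRF8-cKO-71 is the highest for 5 of the 8 assembly factors, and for 24.2% of all genes.

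The libraries of a group did not move as a block. Over all 45 genes WT-44 was the highest library for 32, where it was the highest for 19.4% of all genes, and IRF8-cKO-106 was the lowest for 28, where it was the lowest for 15.6%. The summed level of the Nduf genes was 2771, 3956 and 2578 CPM in WT and 2828, 2032 and 1761 CPM in IRF8-cKO, so that the groups overlapped. Before TMM scaling, Nduf reads made up 0.297%, 0.311% and 0.243% of WT totals and 0.273%, 0.201% and 0.232% of IRF8-cKO totals. TMM factors were lowest in WT-44 (0.786) and highest in IRF8-cKO-106 (1.32). Without IRF8-cKO-71, 31 Nduf genes were lower without overlap, where 20.7% of all genes then were, and without WT-44 the median over the Nduf genes was -0.25.

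The assembly factors showed other orders of the libraries. Ndufaf4, which binds the Q module with Ndufaf3, had 36.2, 32.8 and 19.3 CPM in WT and 42.1, 48.8 and 42.6 CPM in IRF8-cKO. All IRF8-cKO libraries were above the WT libraries, and its log2 fold change was 0.60 (SE 0.29, adjusted p = 0.234). Ndufaf6, which is needed for early steps, had 8.08, 7.93 and 7.96 CPM in WT and 5.97, 4.07 and 5.04 CPM in IRF8-cKO, again without overlap but in the other direction, at -0.67 (SE 0.33, adjusted p = 0.240).

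Ndufaf7, a methyltransferase of the mitochondrial matrix, had 8.02, 8.36 and 4.51 CPM in WT and 18.7, 7.39 and 9.99 CPM in IRF8-cKO. Ndufaf1, a chaperone of the membrane arm, had 18.9, 12.7 and 11.1 CPM in WT and 24.7, 15.7 and 15.7 CPM in IRF8-cKO. In both, IRF8-cKO-71 was the highest library and the groups overlapped, with log2 fold changes of 0.79 (adjusted p = 0.274) and 0.39 (adjusted p = 0.468). Ndufaf2 stood at -0.63 without overlap, but it shares 1955 exon bases with B230220B15Rik on the opposite strand.

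Ndufaf5, which hydroxylates Ndufs7, overlapped between groups, and its log2 fold change of 0.54 had an SE of 0.50. Ndufaf3 stood at 0.53 and, without IRF8-cKO-71, at -0.29. Ndufaf8, the partner of Ndufaf5, stood at -0.18.

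Ndufa4, once counted as a complex I subunit and now placed in complex IV, had 305, 367 and 260 CPM in WT and 226, 216 and 164 CPM in IRF8-cKO. The groups did not overlap, and the log2 fold change was -0.62 (SE 0.29, adjusted p = 0.219). Its hypoxia-induced relative Ndufa4l2 had 12, 4 and 4 reads in WT and 14, 3 and 6 reads in IRF8-cKO and was too low to be tested.

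Levels between genes were compared as CPM per kilobase of the longest principal transcript in GENCODE M21, averaged over the 6 libraries. Ndufa4 was the highest at 420 CPM per kb and Ndufa4l2 the lowest at 0.476. The 36 subunits of the complex had a median of 62.1 CPM per kb, from 2.66 (Ndufb2) to 167 (Ndufa6), and the assembly factors a median of 8.10, from 1.99 (Ndufaf5) to 15.9 (Ndufaf8). Of the 36 subunits, 33 were above every assembly factor, the exceptions being Ndufb2, Ndufab1 and Ndufa12. The transcript taken for Ndufb2 has 4371 bases and that for Ndufab1 3479 bases, and a shorter isoform would give a higher level.

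The 7 subunits encoded in the mitochondrial genome complete the core of the membrane arm. All 7 had negative fold changes with a median of -1.75, which was -0.999 without WT-44, and mt-Nd3 fell in IRF8-cKO, where 0.937% of all genes were called lower. mt-Nd3, whose loop moves between the active and the resting form of the complex, had 36.3, 61.5 and 81.6 CPM in WT and 11.6, 9.42 and 22.6 CPM in IRF8-cKO. All IRF8-cKO libraries were below the WT libraries, and its log2 fold change was -2.04 (SE 0.41, adjusted p = 0.0482). The call was lost in limma-voom (adjusted p = 0.0522), with scaling by library totals alone (0.0835), without robust shrinkage (0.0503), with either length correction (0.129 and 0.146), and when WT-44 (0.191), WT-77 (0.201), IRF8-cKO-71 (0.0698) or IRF8-cKO-106 (0.0638) was left out, over a range of 4.09e-07 to 0.201 for all alternatives.

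The other 6 mitochondrial subunit genes overlapped between groups, with WT-14 inside the range of the IRF8-cKO libraries. mt-Nd1 and mt-Nd4l are given in every library here and were chosen after their values were seen. mt-Nd1 had 6376, 28154 and 17284 CPM in WT and 5900, 8028 and 3953 CPM in IRF8-cKO. mt-Nd4l had 15.4, 193 and 89.2 CPM against 14.7, 18.3 and 12.6 CPM, with a log2 fold change of -2.71 (adjusted p = 0.0899). mt-Nd1, mt-Nd2, mt-Nd4, mt-Nd5 and mt-Nd6 stood between -1.76 (mt-Nd6) and -1.36 (mt-Nd2), with adjusted p from 0.127 to 0.139 in edgeR. DESeq2 called all 7 genes lower (6.42% of all genes). The genes of the mitochondrial genome are transcribed from shared long precursors, and mt-Nd5 and mt-Nd6 overlap on opposite strands.

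**Figure D3:**
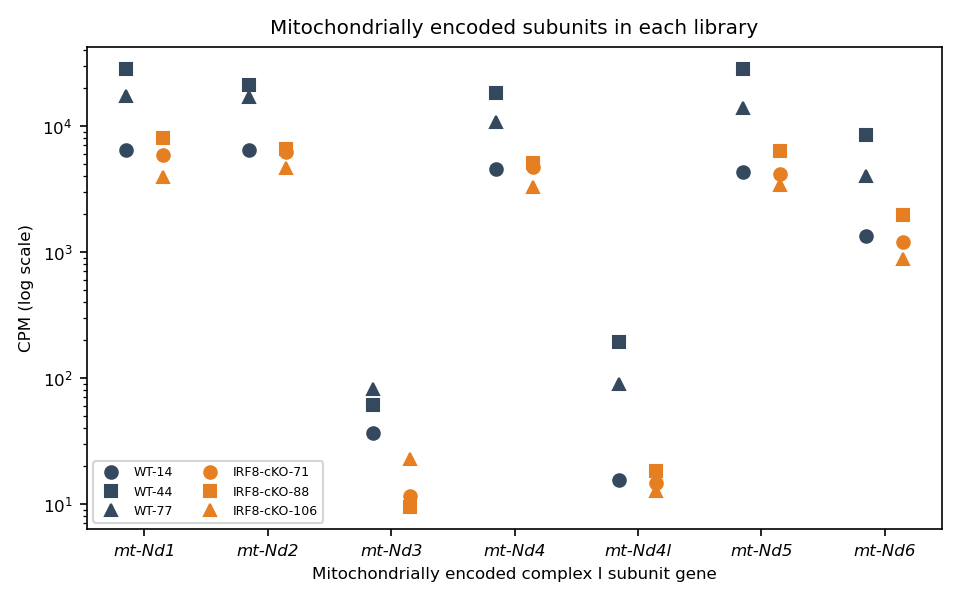
CPM (log axis) of the 7 mitochondrially encoded complex I subunits in each library, with symbols for libraries and colours for groups. WT-44 and WT-77 lie above the IRF8-cKO libraries for all 7 genes, and WT-14 lies above all of them only for mt-Nd3.

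Of 12 further assembly factors without an Nduf name, none passed the edgeR test, against 1.39% of all genes, and 9 had a positive fold change. At an unadjusted p under 0.05 there were 5, all higher in IRF8-cKO (12.1% of all genes). DESeq2 called 1 higher (4.86% of all genes) and limma-voom none, and the median was 0.53. Tmem186, a member of the same chaperone assembly as Ndufaf1, had the lowest p. It had 11.2, 7.76 and 7.10 CPM in WT and 17.7, 19.0 and 19.4 CPM in IRF8-cKO, without overlap, at 1.10 on the log2 scale (SE 0.29, adjusted p = 0.0803).

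**Figure D4:**
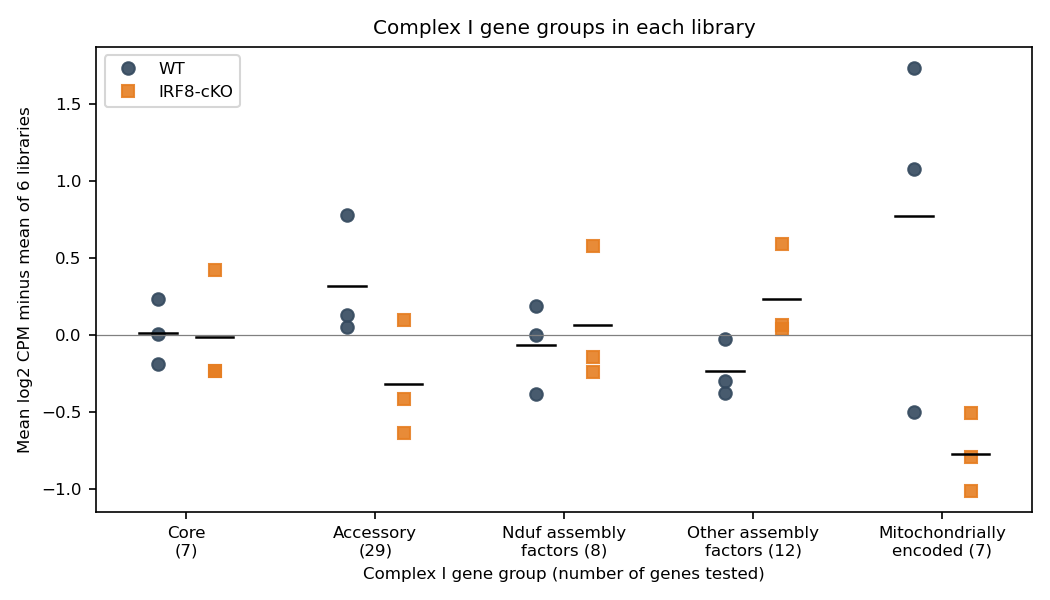
Mean log2 CPM of 5 groups of complex I genes in each library, relative to the mean of the 6 libraries; points are libraries and lines are group means (n = 3). Accessory subunits run from 0.05 to 0.78 in WT and from -0.64 to 0.10 in IRF8-cKO, whereas core subunits overlap widely.

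Relative to their mean over the 6 libraries, accessory subunits stood at 0.13, 0.78 and 0.05 in WT and at 0.10, -0.42 and -0.64 in IRF8-cKO on the log2 scale. Core subunits stood at 0.00, 0.23 and -0.19 in WT and at 0.42, -0.24 and -0.23 in IRF8-cKO. The mean log2 CPM of accessory subunits minus that of core subunits was -0.36, 0.06 and -0.24 in WT and -0.80, -0.66 and -0.88 in IRF8-cKO, and these values did not overlap. IRF8-cKO-71 thus stood with the other IRF8-cKO libraries in this difference, although its accessory subunits alone overlapped with WT.

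Transcript length moved with these differences. Accessory subunits have short transcripts, with a median of 763 bases against 1623 for core subunits and 1308.5 for assembly factors, and shorter genes as a whole had a lower median fold change. Among all tested genes with a principal transcript under 700 bases the median log2 fold change was -0.55, and for the 14 Nduf genes of that length it was -0.80. From 700 to under 1000 bases the medians were -0.43 for all genes and -0.51 for 9 Nduf genes, from 1000 to under 2000 bases -0.11 and -0.23 for 17 Nduf genes, and from 2000 bases 0.13 and 0.20 for 5 Nduf genes. In the same order of length, 9 of 14, 2 of 9, 4 of 17 and 0 of 5 Nduf genes were lower without overlap, against 30%, 26%, 18.9% and 11.3% of all genes of each class. Spearman's correlation of log2 fold change with transcript length was 0.21 over 13124 genes and 0.59 over the 45 Nduf genes, which share the same 6 libraries.

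The mean log2 CPM of all genes under 1000 bases minus that of genes from 1000 to under 2000 bases also did not overlap between groups, at -0.63, -0.37 and -0.61 in WT and -0.77, -0.78 and -0.90 in IRF8-cKO. With a correction for transcript length in each library, the median of accessory subunits was -0.36 with 27 of 29 negative, and the median of all Nduf genes was -0.18. The part of transcript length in the differences of single Nduf genes was not tested.

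**Figure D5:**
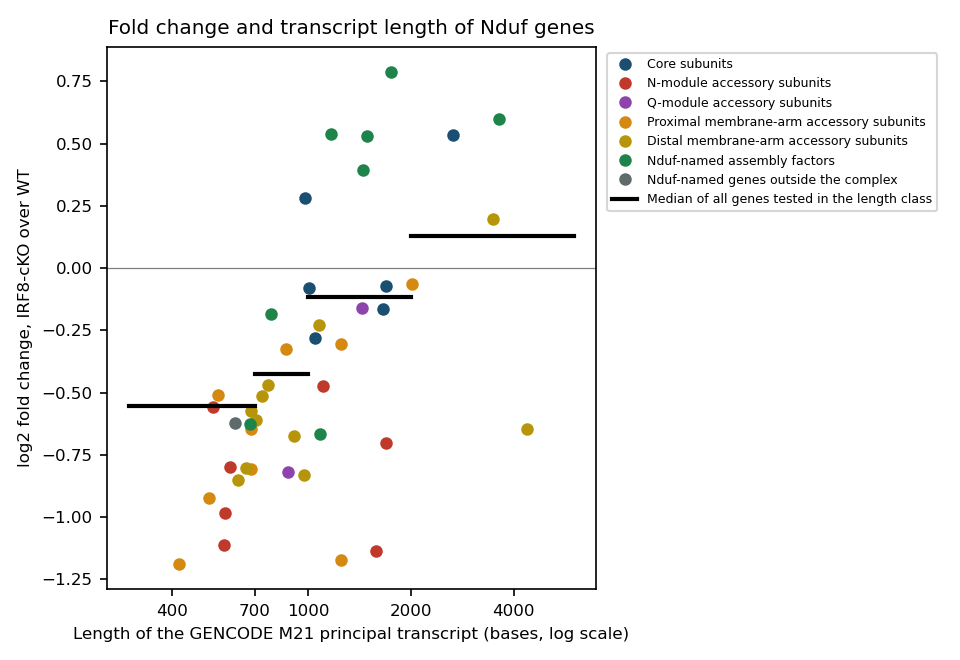
Log2 fold change of 44 tested Nduf genes (IRF8-cKO over WT) against the length of the principal transcript in bases (log axis), coloured by role, with black lines at the median of all tested genes in 4 length classes. The lines step from -0.55 under 700 bases to 0.13 from 2000 bases, and the medians of the tested Nduf genes in the same classes step from -0.80 to 0.20.

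The other complexes of oxidative phosphorylation showed the same sign for most subunits. Of 40 tested nuclear subunits of complexes II to V, 35 had a negative fold change, with a median of -0.43. That median was -0.12 with the correction for transcript length and -0.16 without WT-44. None was called by edgeR (1.39% of all genes) or limma-voom. At an unadjusted p under 0.05 there were 7, all lower (12.1% of all genes), and DESeq2 called 2 lower (6.42%). Without overlap, 8 were lower (14.5% of all genes). By complex the medians were -0.10 for the 4 subunits of complex II, -0.23 for 9 of complex III, -0.73 for 12 of complex IV and -0.36 for 15 of ATP synthase.

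The subunit with the lowest p in each of these complexes is given here. Uqcr11, a small accessory subunit of complex III, had 128, 270 and 114 CPM in WT and 80.4, 53.1 and 43.3 CPM in IRF8-cKO, at a log2 fold change of -1.53 (adjusted p = 0.0753). Cox6c, an accessory subunit of complex IV, stood at -0.89 (adjusted p = 0.156), Atp5e, the epsilon subunit of ATP synthase, at -0.82 (adjusted p = 0.186) and Sdhb, the iron-sulfur subunit of complex II, at -0.49 (adjusted p = 0.364).

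Regulators of respiratory gene transcription, dehydrogenases that feed NADH to the complex and hypoxia-induced genes gave no call by edgeR either. The 14 regulators had a median of 0.04. At an unadjusted p under 0.05, 3 were higher and 1 lower (12.1% of all genes in each direction), and DESeq2 called 1 higher (4.86%). Tfb1m, a methyltransferase of mitochondrial ribosomal RNA, had 3.73, 2.24 and 2.19 CPM in WT and 13.0, 10.8 and 6.80 CPM in IRF8-cKO, at 1.90 (SE 0.41, adjusted p = 0.0532). The 12 matrix dehydrogenases had a median of 0.31, with Idh3a of the citric acid cycle at 0.85 (adjusted p = 0.145 in edgeR). Of these, 2 genes were higher at an unadjusted p under 0.05 (12.1% of all genes), and DESeq2 called none.

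Of 12 hypoxia-induced genes 11 were tested, with a median of -0.62, 4 lower at an unadjusted p under 0.05 (12.1% of all genes) and 3 called lower by DESeq2 (6.42%). Higd1a, a small protein of the inner mitochondrial membrane, had 117, 161 and 87.5 CPM in WT and 50.4, 59.8 and 40.8 CPM in IRF8-cKO, at -1.27 (SE 0.31, adjusted p = 0.0646).

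Markers of the cell types of liver were read from the same fit, and none of them was at 0 in all libraries. The 12 hepatocyte markers had a median of -0.38 and summed levels of 82073 to 129530 CPM in WT and 65904 to 84335 CPM in IRF8-cKO, with Ttr at -1.05 (adjusted p = 0.129). None was called by edgeR and DESeq2 called 1 lower (6.42% of all genes). Of 14 neutrophil markers 10 were tested and 5 fell in edgeR's test (0.937% of all genes). S100a8 had the lowest p in that test, at -2.57 (adjusted p = 0.0243). Of the 10, 9 were lower without overlap (14.5% of all genes), and DESeq2 called 8 lower (6.42%). Summed levels were 1215 to 3537 CPM in WT and 784 to 4652 CPM in IRF8-cKO, of which Lcn2, singled out after its values were seen, made up 985 to 3350 and 759 to 4612 CPM. The other 13 markers were summed at 187 to 231 CPM in WT and 25.3 to 55.4 CPM in IRF8-cKO, with no overlap. The 10 Kupffer cell markers all had positive fold changes with a median of 0.91 and Cd5l at 1.37 (adjusted p = 0.0784). None was called by edgeR and DESeq2 called 2 higher (4.86% of all genes). The Kupffer cell markers were summed at 105.6 to 131.5 CPM in WT and 116 to 342 CPM in IRF8-cKO.

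Of 7 cholangiocyte markers 6 were tested, with none called by edgeR and 3 called lower by DESeq2 (6.42% of all genes). The median was -2.19, with Krt19 at -3.47 (adjusted p = 0.0551 in edgeR). Summed levels were 57.2 to 115 CPM in WT and 32.0 to 48.5 CPM in IRF8-cKO. Of 7 erythroid markers 5 were tested, with a median of -1.24. In edgeR 1 was called (0.937% of all genes called lower): Hba-a2, which has a near-identical copy that may share its reads, fell by 1.74 on the log2 scale (adjusted p = 0.0495). DESeq2 called 4 lower (6.42% of all genes) and 4 were lower without overlap (14.5%), whereas Alas2 overlapped at -0.09. Summed levels were 215 to 318 CPM in WT and 101 to 151 CPM in IRF8-cKO. In edgeR no gene was called lower without WT-44 or without WT-77, so its calls of the 5 neutrophil markers and Hba-a2 were lost there. Markers of monocytes and macrophages (median -0.68, 10 tested), endothelial cells (-0.11, 9 tested) and stellate cells (0.06, 9 tested) gave no call by edgeR. DESeq2 called 1 monocyte and macrophage marker higher, 2 endothelial markers lower and 1 stellate marker higher. Of all genes it called 4.86% higher and 6.42% lower. Of the markers of T, B and NK cells, 1 of 10 passed the filter, Cd8a at 1.43 (adjusted p = 0.342). The part of cell composition in the Nduf values was not tested.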

How the data were processed

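Bulk RNA from the ischemic liver lobe was sequenced in 3 IRF8-cKO and 3 WT libraries. The authors deposited raw read counts per gene, whole numbers that were not normalised. HISAT2 2.0.5, featureCounts 1.5.0-p3 and the build mm10 are named per the submitters' processing notes. The sources used here do not give the annotation release, the strand setting or the treatment of reads with several matches, so reads of overlapping genes or near-identical copies may be shared: 19 of the 46 genes share exon bases with another gene in GENCODE M21, 3 of them on the same strand, and 5 pseudogenes are described as NADH dehydrogenase genes.

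Groups came from the sample titles. Libraries of a group differed by a chi-square per degree of freedom of at least 44.2, far above sampling noise, so each was kept as a sample of its own. Genes were kept by filterByExpr (minimum count 10, minimum total 15), which left 13134 of 24095 genes with a read. Counts were scaled by TMM and compared in edgeR 4.0.16 (R 4.3.3) by the robust quasi-likelihood test, two-sided, with group as the only term and Benjamini-Hochberg adjustment over all genes tested at a threshold of 0.05. The biological coefficient of variation was 37.1%. The SE of a log2 fold change was derived from this test, as the absolute fold change on the log2 scale over the square root of the test's F statistic. Lists are described by counts and medians beside those of all genes.

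Alternatives were median-of-ratios and upper-quartile factors, library totals alone, no low-count filter, at least 1 CPM in 3 libraries, DESeq2 1.42.0, voom in limma 3.58.1, a fit without robust shrinkage, totals without the 10 most abundant genes or without the mitochondrial genome, a correction for the deposited gene length (lowess, span 0.5), and each library left out in turn. The same correction with the length of the principal GENCODE M21 transcript was chosen after seeing the data. Deposited lengths equal the union of exons for 53325 genes, so levels per length used the principal transcript. Members, lists and roles were chosen with earlier results of these data known. Values in every library are given for the 3 genes with the lowest p in each role and for Irf8, Ndufv1, Ndufs1, Ndufab1, Ndufa4, Ndufa4l2 and Ndufaf1. From most other lists the gene with the lowest p is given with its fold change and adjusted p. Of these genes, mt-Nd3, Tmem186, Uqcr11, Tfb1m and Higd1a are also given in every library. For mt-Nd1 and mt-Nd4l such values were added after they were seen. Promoter sequences are from RefSeq (GRCm38.p6). The values of 1 tested core subunit are not reported here and it is not drawn in the figures by gene, but it enters the counts and medians.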

Additional observations from a re-analysis of the deposited data

How the results depend on the processing

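The number of genes called over all genes, 182, was 82 with library totals alone, 1723 with no low-count filter, 1423 in DESeq2, 111 in limma-voom, 99 with the gene length correction and 79 with the transcript length correction, and from 0 (without WT-77) to 1205 (without IRF8-cKO-88) when a library was left out, with 1 without WT-44 and 20 without IRF8-cKO-106. Nduf genes called, 0 in edgeR, were 5 with no low-count filter (Ndufa1, Ndufa2, Ndufa13, Ndufs6 and Ndufv3). They were 4 in DESeq2 (the same without Ndufa2), and 0 to 1 when a library was left out. Of the genes for which it gave an adjusted p, DESeq2 called 6.42% lower and 11.3% in either direction. The shares of all genes called with no low-count filter or with a library left out are not given here. The counts of Nduf genes called in those settings therefore have no background beside them. The median over the Nduf genes ran from -0.72 (without IRF8-cKO-71) to -0.25 (without WT-44) when a library was left out and was -0.18 with the transcript length correction. Nduf genes lower without overlap, 15 (14.5% of all genes), ran from 15 to 31 when a library was left out. Of all genes, 17.8% to 22.3% were then lower without overlap. Nduf genes higher without overlap, 2 (14.4% of all genes), ran from 2 to 4, and the share of all genes was not computed there. Under the transcript length correction 13 Nduf genes were lower without overlap, and under the gene length correction 1 was higher. The shares of all genes under these corrections are not given here, so these counts have no background beside them. Over the 45 genes and 18 alternatives, 774 of 810 values kept their sign and their side of the threshold, 10 newly passed it and 26 changed sign, none of which was past the threshold. With library totals alone the sign changed for Ndufa9 (0.043), Ndufv1 (0.026), Ndufv2 (0.15), Ndufs8 (0.12), Ndufa10 (0.16), Ndufb5 (0.005) and Ndufaf8 (0.01). With the gene length correction it changed for Ndufv2 (0.034), Ndufs8 (0.22), Ndufa8 (0.013) and Ndufaf8 (0.145), and with the transcript length correction for Ndufs8 (0.16), Ndufb5 (0.025) and Ndufaf8 (0.14). With a library left out, values ran from -0.10 to 0.47 for Ndufab1, from -0.12 to 0.52 for Ndufs7, from -0.28 to 0.15 for Ndufv2, from -0.47 to 0.12 for Ndufs8, from -0.26 to 0.17 for Ndufa10, from -0.40 to 0.057 for Ndufb5, from -0.29 to 0.84 for Ndufaf3 and from -0.53 to 0.001 for Ndufaf8. Leaving out samples leaves fewer to test, and the cause of the other shifts was not tested. No paired analysis was possible because no library number occurs in both groups. With 3 libraries per group, the lowest adjusted p of an Nduf gene was 0.0873.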

Other observations

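The table also lists 5 genes with an Nduf name that are not marked as protein coding. Ndufb1-ps (chr12:101968090-101977068, mm10), listed as a long noncoding RNA, had 46.1, 68.9 and 34.8 CPM in WT and 45.9, 34.9 and 28.9 CPM in IRF8-cKO. No gene named Ndufb1 was among the 46 genes described above. The groups overlapped, and the log2 fold change of Ndufb1-ps was -0.45 (SE 0.32, adjusted p = 0.401 in the edgeR test).

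The remaining 4 are processed pseudogenes, whose reads can be hard to tell from those of the parent gene. Ndufab1-ps had 2.65 to 5.69 CPM in WT and 3.33 to 5.36 CPM in IRF8-cKO, with a log2 fold change of -0.04 (adjusted p = 0.962). Ndufb4c had 1.73 to 4.397 CPM in WT and 1.17 to 2.16 CPM in IRF8-cKO, at -0.81 (adjusted p = 0.363). Ndufs6b had 2 to 8 reads per library and was not tested, and Ndufa11b had 0 reads in all 6 libraries.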
